A study of Mus musculus with 2 samples.

Results

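The cells described here came from embryoid bodies treated with dTAG13 and held no UMI of 3 p53 target genes that were detected in most cells of that library. A cell was a member when it had 0 raw UMIs (distinct tagged transcripts) of Mdm2, Btg2 and Plk2. Before that, barcodes with at least 5000 UMIs, at least 500 genes and at most 10% of UMIs from mitochondrial genes were kept. Of 9463 such dTAG13 cells, 583 were members (6.16%, 95% interval 5.68 to 6.66), and 8880 were not. They are called the 0-UMI cells below, and they were compared with the 8880 other dTAG13 cells and with 12804 DMSO cells passing the same filter, 22267 filtered cells in all.

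The dTAG13 embryoid bodies were exposed to the compound for 2 days, and the DMSO embryoid bodies to the solvent for 2 days. Both were aggregates grown from male J1 embryonic stem cells of the mouse, dissociated with trypsin and profiled with a droplet 3′ kit. dTAG13 is a small molecule that links proteins carrying an engineered FKBP12 tag to a ubiquitin ligase and so causes their degradation. The labels do not say which protein carried the tag. The series title names Tex10, and whether the DMSO cells carry the same tagged allele is not stated. There was 1 library per treatment and cells are not replicates, so no test was made, and every interval is a 95% interval that covers counting error only.

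The transcription factor p53, encoded by Trp53, is held low in unstressed cells by the ubiquitin ligase Mdm2. DNA damage or faulty ribosome assembly releases it, and it then switches on genes for cell cycle arrest, DNA repair and cell death, together with Mdm2 itself, which closes a feedback loop. Embryonic stem cells divide fast with a short G1 phase, and in them p53 is known both to respond to damage and to restrain self-renewal genes.

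The 3 genes of the rule were chosen by their values, so their levels are a description of the choice. Mdm2 (ENSMUSG00000020184) is the p53 ligase, Btg2 (ENSMUSG00000020423) is an antiproliferative cofactor of mRNA deadenylation, and Plk2 (ENSMUSG00000021701) is a stress-induced polo-like kinase. Their promoter sequences are shown because these genes define the cells. Each is the 250 bases before the start of the gene in RefSeq, build GRCm38.p6, written on the strand of the gene. The windows are chr10:117710759-117711008 on the minus strand for Mdm2, chr1:134079156-134079405 on the minus strand for Btg2 and chr13:110394794-110395043 on the plus strand for Plk2. Capitals mark TGACGTCA, the palindromic cAMP response element, and the p53 decamer motif, which were searched on both strands and did not overlap.
Mdm2: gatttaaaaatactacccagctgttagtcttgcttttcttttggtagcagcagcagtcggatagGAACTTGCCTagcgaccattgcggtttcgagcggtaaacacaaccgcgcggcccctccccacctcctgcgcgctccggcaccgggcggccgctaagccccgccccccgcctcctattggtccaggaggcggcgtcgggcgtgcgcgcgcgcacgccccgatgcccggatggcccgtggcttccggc
Btg2: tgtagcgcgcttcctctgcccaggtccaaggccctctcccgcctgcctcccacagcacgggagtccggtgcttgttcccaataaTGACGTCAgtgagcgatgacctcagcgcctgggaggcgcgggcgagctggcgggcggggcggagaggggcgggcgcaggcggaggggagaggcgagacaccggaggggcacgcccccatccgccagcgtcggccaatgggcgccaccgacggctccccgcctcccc
Plk2: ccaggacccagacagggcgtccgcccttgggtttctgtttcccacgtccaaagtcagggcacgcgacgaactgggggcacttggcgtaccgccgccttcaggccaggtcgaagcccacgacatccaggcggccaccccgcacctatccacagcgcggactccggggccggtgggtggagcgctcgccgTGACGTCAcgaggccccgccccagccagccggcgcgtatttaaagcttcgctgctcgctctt

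The Mdm2 window held 1 match to the p53 motif, with its first base at -186 from the start of the gene, and 0 copies of TGACGTCA. The Btg2 and Plk2 windows each held 1 copy of TGACGTCA, starting at -166 and -62, and 0 p53 motifs. Of 32851 windows of the same length, 508 (1.55%) held TGACGTCA and 2341 (7.13%) held the p53 motif. A match describes the letters in the window and does not show a site in use.

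By the rule, the 0-UMI cells held 0 UMIs of each of the 3 genes among 4327498 UMIs. In CPM (counts scaled to a common total), Mdm2 was at 380 CPM in other dTAG13 cells and at 43.6 CPM in DMSO cells. Btg2 was at 123 CPM in other dTAG13 cells and 14.2 CPM in DMSO cells, and Plk2 was at 142 CPM in other dTAG13 cells and 18.7 CPM in DMSO cells. Just outside the threshold, 789 dTAG13 cells held 1 UMI of the 3 genes. A further 2157 cells held 2 to 3, 2923 held 4 to 6 and 3011 held 7 or more. In the DMSO library, 8410 cells (65.7%, 64.9 to 66.5) held 0 UMIs, against 583 cells (6.16%) in the dTAG13 library.

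Membership moved with depth. Medians were 6840 UMIs and 2197 genes in the 0-UMI cells, against 7794.5 UMIs and 2394 genes in other dTAG13 cells and 6786 UMIs and 2139 genes in DMSO cells. Median mitochondrial shares were 2.09% in 0-UMI cells, 1.98% in other dTAG13 cells and 2.47% in DMSO cells. Of dTAG13 cells with 5000 to under 6000 UMIs, 9.42% were 0-UMI cells (169 cells). The share was 7.32% at 6000 to under 8000 UMIs (246 cells), 4.92% at 8000 to under 12000 UMIs (145 cells) and 1.69% at 12000 UMIs or more (23 cells). After every cell was thinned to 5000 UMIs, 11.5% of dTAG13 cells and 73.6% of DMSO cells held 0 UMIs of the 3 genes. How many 0-UMI cells held such transcripts that were not sampled was not tested. Barcodes shared with the other library were rare: 3 of 583 0-UMI cells (0.515%) and 44 of 8880 other dTAG13 cells (0.495%) had a barcode also deposited with DMSO. Free RNA was bounded from Zscan4 UMIs outside the few cells that express this family, at up to 5.80% (3.996 to 8.15) of dTAG13 UMIs and 12.7% (8.70 to 18.0) of DMSO UMIs.

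Most other p53 targets were at intermediate levels in the 0-UMI cells, below other dTAG13 cells and above DMSO cells. A lack of p53 target transcripts therefore held for the 3 genes of the rule, by choice, and not for the rest of the pathway. Over 40 further targets, counted per cell after thinning to 5000 UMIs and without the abundant Rps27l and Bax, the 0-UMI cells had a median of 9 UMIs with quartiles of 6 and 12. Other dTAG13 cells had a median of 13 with quartiles of 10 and 17, and DMSO cells one of 5 with quartiles of 3 and 7. More than 9 UMIs, the 90th percentile of DMSO cells, were held by 43.4% of 0-UMI cells (39.3 to 47.5), by 77.8% of other dTAG13 cells and by 8.997% of DMSO cells. The 8410 DMSO cells that also had 0 UMIs of the rule genes had a median of 4.

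**Figure D1:**
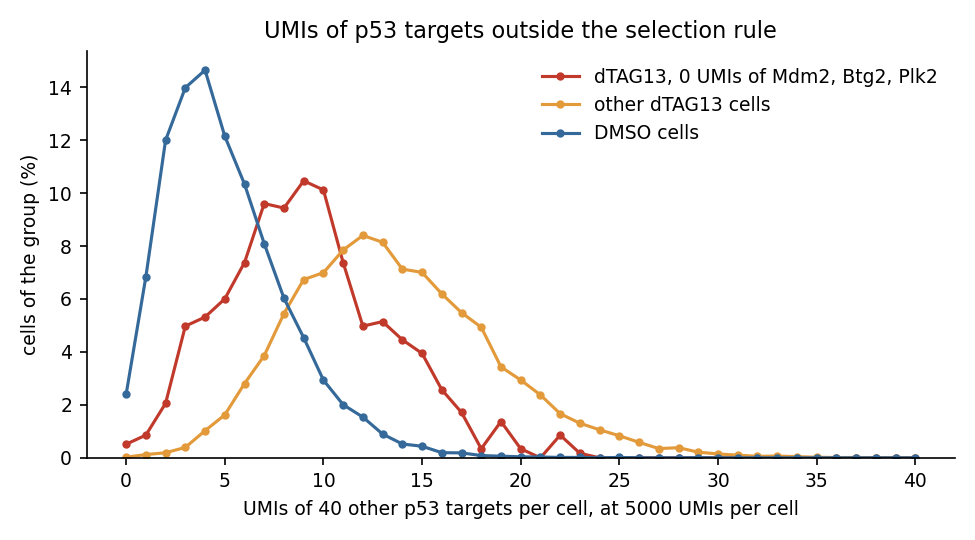
UMIs of 40 p53 targets outside the selection rule per cell, at 5000 UMIs per cell, on the x axis, against the share of cells in each group on the y axis; lines join the shares. The 0-UMI cells peak near their median of 9 UMIs, between other dTAG13 cells (median 13) and DMSO cells (median 5), and overlap both.

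The same order held when cells were grouped by their UMIs of the 3 rule genes. In dTAG13 cells the median of other target UMIs was 9, 10, 12, 13 and 15 at 0, 1, 2 to 3, 4 to 6 and 7 or more UMIs. DMSO cells had medians of 4, 5, 7, 9 and 11 in the same bins. The summed level of Perp followed these bins, at 93.6, 138, 162, 181 and 212 CPM in dTAG13 cells and 19.9, 29.9, 46.8, 75.8 and 90.7 CPM in DMSO cells. For Perp, the 0-UMI cells were thus near the 39 DMSO cells richest in rule gene UMIs, which are few. Other genes did not match as closely between these 2 bins. Cdkn1a was lower in the 0-UMI cells, at 132 against 170 CPM, and Ccng1 higher, at 167 against 152 CPM. The place of the 0-UMI cells at the low end of the dTAG13 bins, next to the dTAG13 cells holding 1 UMI, was set by the rule. Median depth in the dTAG13 bins was 6840, 6816, 7008, 7584 and 9283 UMIs, and its part was not tested.

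**Figure D2:**
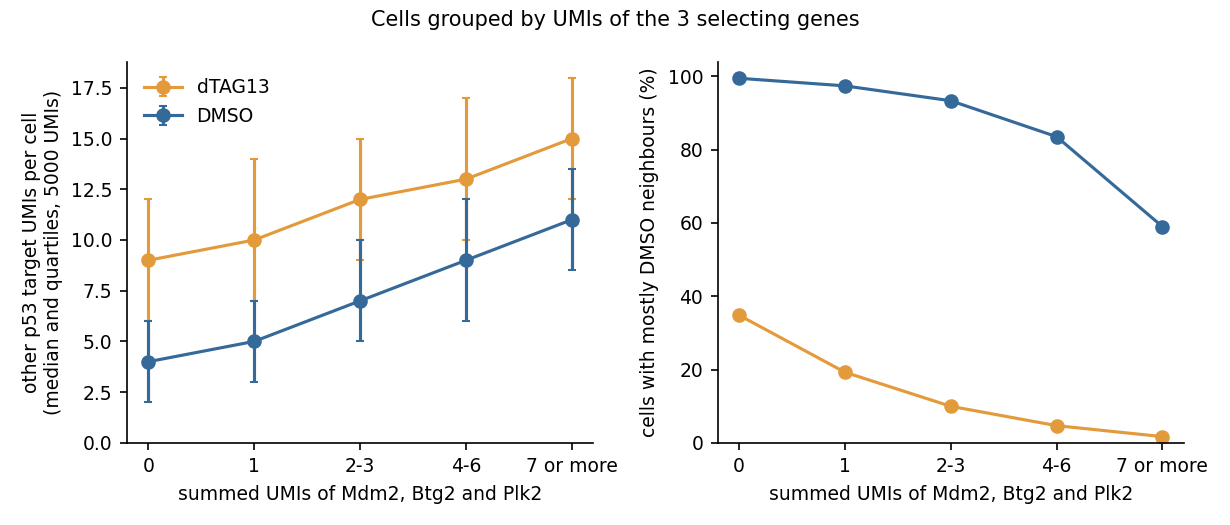
Cells grouped by summed UMIs of Mdm2, Btg2 and Plk2 (x axis). The left panel gives UMIs of 40 other p53 targets per cell (median, bars are quartiles) and the right panel the share of cells with at least 50% DMSO cells among their neighbours; the dTAG13 point at 0 is the 0-UMI cells, at a median of 9 UMIs and 34.8%.

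Of 43 genes in the p53 target list, 42 were in the matrix and 38 passed a minimum of 10 CPM. In 0-UMI cells 0 of the 38 were at least 1.5-fold higher than in other dTAG13 cells and 18 were at least 1.5-fold lower. Over all 6884 genes tested by that fold, 88 (1.28%) were higher and 367 (5.33%) lower. Set against DMSO cells, 26 of the 38 were at least 1.5-fold higher and 0 lower, where 356 (5.29%) of 6733 genes were higher and 150 (2.23%) lower. The median log2 ratio of the list was -0.56 over other dTAG13 cells and 0.70 over DMSO cells, and over all genes it was 0.01 and 0.06. Scaling by the median of ratios in place of the total turned the counts against DMSO into 287 higher and 195 lower. With at least 8000 UMIs per cell, 168 0-UMI cells remained, and the counts against other dTAG13 cells became 266 higher and 586 lower. The list was compiled with results of these libraries known, so its direction is not independent evidence.

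Among feedback regulators, Ccng1 (a cyclin that recruits a phosphatase to Mdm2) was at 167 CPM in 0-UMI cells, from 721 UMIs, against 229 CPM in other dTAG13 cells and 68.7 CPM in DMSO cells. The p53 phosphatase gene Ppm1d was at 18.7 CPM in 0-UMI cells, 33.9 CPM in other dTAG13 cells and 17.6 CPM in DMSO cells. Mdm4, the partner of Mdm2, was at 78.8 CPM in 0-UMI cells, 112 CPM in other dTAG13 cells and 72.2 CPM in DMSO cells. Ppm1d and Mdm4 were thus near their DMSO levels in the 0-UMI cells, with ratios over DMSO of 1.06 (0.839 to 1.33) and 1.09 (0.976 to 1.22), whereas Ccng1 was above, at 2.42 (2.24 to 2.62). Trp53 itself was at 468 CPM in 0-UMI cells, 461 CPM in other dTAG13 cells and 467 CPM in DMSO cells, so its mRNA did not separate the groups. In a list of 12 measured regulators of p53, 1 was at least 1.5-fold lower than in other dTAG13 cells (5.33% over all genes). By the same fold 1 was higher than in DMSO cells (5.29% over all genes).

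Several growth arrest genes were intermediate as well. Cdkn1a, which encodes the cyclin-dependent kinase inhibitor p21, was at 132 CPM in 0-UMI cells (572 UMIs), 232 CPM in other dTAG13 cells and 64.2 CPM in DMSO cells. Its ratio was 0.569 (0.522 to 0.618) over other dTAG13 cells and 2.06 (1.89 to 2.24) over DMSO cells. Phlda3, an Akt repressor gene of the p53 list, was at 123 CPM in 0-UMI cells, 219 CPM in other dTAG13 cells and 59.5 CPM in DMSO cells. The 14-3-3 sigma gene Sfn was at 209 CPM in 0-UMI cells, 295 CPM in other dTAG13 cells and 172 CPM in DMSO cells and the zinc finger gene Klf6 at 65.4 CPM in 0-UMI cells, 120 CPM in other dTAG13 cells and 27.2 CPM in DMSO cells. The kinase inhibitor gene Cdkn2b was at 6.24 CPM in 0-UMI cells, 23.5 CPM in other dTAG13 cells and 4.37 CPM in DMSO cells. Of 12 measured growth arrest genes, 3 were at least 1.5-fold lower than in other dTAG13 cells (5.33% over all genes) and 7 at least 1.5-fold higher than in DMSO cells (5.29% over all genes). Another 3 of the 12 had ratios above 1 over other dTAG13 cells.

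Cell death genes followed. Perp (ENSMUSG00000019851), a membrane protein gene of p53-dependent death and of cell adhesion, was at 93.6 CPM in 0-UMI cells (405 UMIs), 187 CPM in other dTAG13 cells and 27.0 CPM in DMSO cells. It had the highest ratio over DMSO of the named p53 targets, 3.47 (3.12 to 3.85), and a ratio of 0.502 (0.453 to 0.554) over other dTAG13 cells. The BH3-only genes Bbc3 and Pmaip1, whose products start mitochondrial apoptosis, were at 25.6 and 7.16 CPM in 0-UMI cells, at 40.0 and 12.7 CPM in other dTAG13 cells and at 14.4 and 2.19 CPM in DMSO cells. Trp53inp1 was at 66.3 CPM in 0-UMI cells, 114 CPM in other dTAG13 cells and 27.1 CPM in DMSO cells, and Apaf1, the core of the apoptosome, at 14.8 CPM in 0-UMI cells, 29.96 CPM in other dTAG13 cells and 7.98 CPM in DMSO cells. Bax, an effector of mitochondrial apoptosis, differed least among these genes, at 714 CPM in 0-UMI cells, 775 CPM in other dTAG13 cells and 662 CPM in DMSO cells.

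The repair gene Ercc5 was at 43.7 CPM in 0-UMI cells, 78.5 CPM in other dTAG13 cells and 21.6 CPM in DMSO cells. Polk, a translesion polymerase gene, was at 23.8 CPM in 0-UMI cells, 38.0 CPM in other dTAG13 cells and 15.8 CPM in DMSO cells. Xpc, a damage sensor gene, gave no such order, with 19.2 CPM in 0-UMI cells, 17.4 CPM in other dTAG13 cells and 19.3 CPM in DMSO cells, and neither did Rrm2b, a ribonucleotide reductase subunit gene, with 10.2 CPM in 0-UMI cells, 11.5 CPM in other dTAG13 cells and 11.7 CPM in DMSO cells. Zfp365 had the lowest ratio over other dTAG13 cells of the measured targets, 0.363 (0.277 to 0.468), at 14.1 CPM in 0-UMI cells against 38.8 CPM in other dTAG13 cells and 4.95 CPM in DMSO cells. Of the 38 targets, 4 had a ratio above 1 over other dTAG13 cells. These were Tigar at 1.38 (1.21 to 1.58), Sesn1 at 1.21 (0.892 to 1.61), Xpc at 1.10 (0.873 to 1.38) and Dyrk3 at 1.003 (0.857 to 1.17). The interval of Tigar alone lay above 1.

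**Figure D3:**
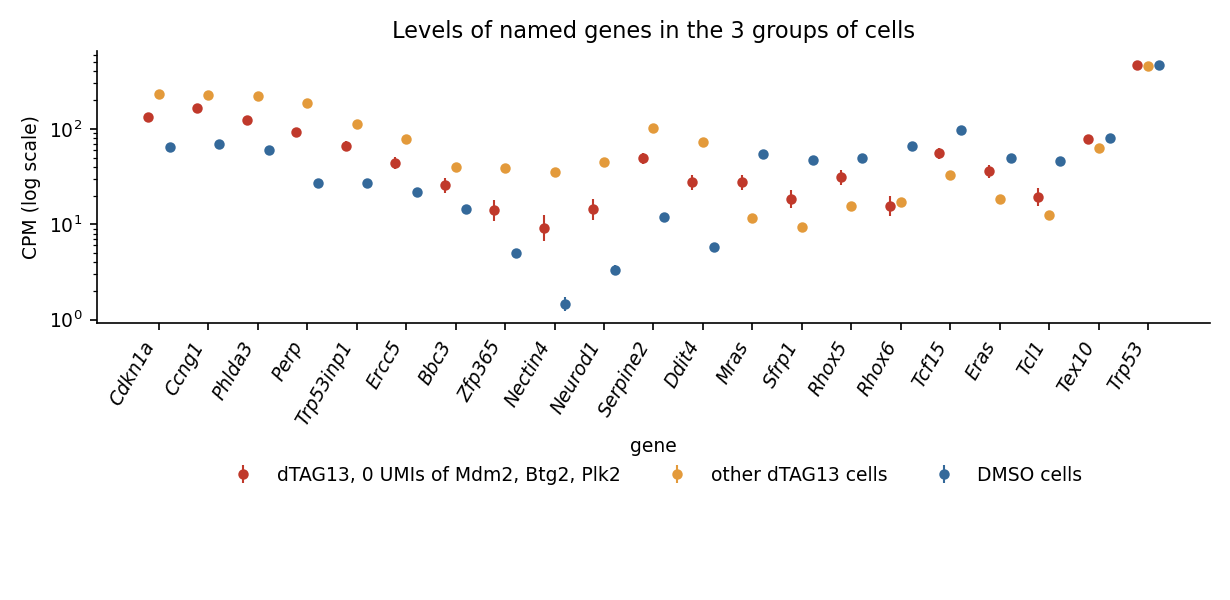
Summed CPM (log scale, y axis) of named genes (x axis) in 0-UMI cells, other dTAG13 cells and DMSO cells; bars are 95% Poisson intervals of counting error, often smaller than the points. The p53 targets on the left and the dTAG13-raised genes through Ddit4 lie lowest in DMSO cells, with 0-UMI cells between, and genes from Mras to Tcl1 lie highest in DMSO cells, with Trp53 level across the groups at 468, 461 and 467 CPM.

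The genes furthest below other dTAG13 cells were also ones that were low with DMSO. Among the 12 lowest, Zfp365 alone is in the p53 target list. Atf3, a stress-induced transcription factor gene, was at 4.62 CPM in 0-UMI cells (20 UMIs), 24.1 CPM in other dTAG13 cells and 1.27 CPM in DMSO cells. Sct, the gene of the hormone secretin, was at 28.0 CPM in 0-UMI cells, 113 CPM in other dTAG13 cells and 11.2 CPM in DMSO cells. The adhesion receptor gene Nectin4 had a level of 9.24 CPM in 0-UMI cells, 35.5 CPM in other dTAG13 cells and 1.46 CPM in DMSO cells. Their ratios over other dTAG13 cells were 0.192 (0.117 to 0.297), 0.248 (0.206 to 0.297) and 0.260 (0.186 to 0.355). The neurogenic factor gene Neurod1 was at 14.3 CPM in 0-UMI cells, 44.9 CPM in other dTAG13 cells and 3.35 CPM in DMSO cells. Klhl26, the phosphatidate phosphatase gene Lpin1, the filament gene Synm, Fgfbp1, Ddit4l, Cdkn2b and Zfp365 were also among the 12 lowest, which had ratios up to 0.376. The FGF carrier gene Fgfbp1 was close to its DMSO level, with 8.78 CPM in 0-UMI cells, 23.6 CPM in other dTAG13 cells and 8.52 CPM in DMSO cells.

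Among genes that reached 20 CPM in a compared group and were detected in 5% of cells where higher, the 8 highest ratios over DMSO lay between 3.27 and 5.20. Gpx3, a secreted glutathione peroxidase gene, was at 22.0 CPM in 0-UMI cells, 43.9 CPM in other dTAG13 cells and 4.22 CPM in DMSO cells, a ratio over DMSO of 5.20 (4.12 to 6.52). Ddit4, an inhibitor of mTORC1 signalling, was at 27.7 CPM in 0-UMI cells, 72.9 CPM in other dTAG13 cells and 5.71 CPM in DMSO cells. The protease inhibitor gene Serpine2 was at 49.2 CPM in 0-UMI cells, 103 CPM in other dTAG13 cells and 11.9 CPM in DMSO cells. Cgref1, Phlda1, Perp, Pid1 and the thioredoxin-binding gene Txnip made up the rest. Pid1 was nearest to other dTAG13 cells, at 22.6 CPM in 0-UMI cells against 28.1 CPM in other dTAG13 cells and 6.68 CPM in DMSO cells. A list of 15 genes higher with dTAG13, taken from earlier results of these libraries, had 15 of 15 at least 1.5-fold lower than in other dTAG13 cells and 13 of 15 at least 1.5-fold higher than in DMSO cells. Its median log2 ratios were -1.10 and 1.87. Because the list was chosen from these libraries, its counts and medians are a description and not independent evidence.

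Several genes that were low in other dTAG13 cells were higher in the 0-UMI cells, though below DMSO cells. Mras, a Ras-family GTPase gene, had the highest ratio over other dTAG13 cells within the same limits of 20 CPM and 5% of cells, 2.41 (1.97 to 2.91). It was at 27.7 CPM in 0-UMI cells (120 UMIs) against 11.5 CPM in other dTAG13 cells and 54.3 CPM in DMSO cells. Eras, a constitutively active Ras of embryonic stem cells, was at 35.8 CPM in 0-UMI cells, 18.5 CPM in other dTAG13 cells and 49.8 CPM in DMSO cells. Tcf15, whose product marks cells that exit naive pluripotency, was at 55.7 CPM in 0-UMI cells, 33.0 CPM in other dTAG13 cells and 96.7 CPM in DMSO cells. Rhox5, an X-linked homeobox gene, was at 31.0 CPM in 0-UMI cells, 15.5 CPM in other dTAG13 cells and 49.4 CPM in DMSO cells. Some genes that were high with DMSO stayed near the level of other dTAG13 cells: Rhox6 was at 15.7 CPM in 0-UMI cells, 17.3 CPM in other dTAG13 cells and 65.5 CPM in DMSO cells, and Plac8 at 23.1 CPM in 0-UMI cells, 22.4 CPM in other dTAG13 cells and 69.0 CPM in DMSO cells. Rhox genes are a family of near copies, so their single-gene values are uncertain. Of 16 genes lower with dTAG13, again a list from earlier results, 9 were at least 1.5-fold higher than in other dTAG13 cells. Against DMSO cells 15 of the 16 were at least 1.5-fold lower. The median log2 ratios were 0.68 over other dTAG13 cells and -1.01 over DMSO cells. The direction of this list is not independent evidence either.

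Genes for entry into S phase were among the 12 highest ratios over other dTAG13 cells. The cyclin E genes Ccne1 and Ccne2 were at 121 and 21.5 CPM in 0-UMI cells, at 72.0 and 10.0 CPM in other dTAG13 cells and at 139 and 14.7 CPM in DMSO cells. Cdc6, which loads helicase at replication origins, was at 52.0 CPM in 0-UMI cells, 31.6 CPM in other dTAG13 cells and 53.9 CPM in DMSO cells. The repressor gene E2f8 was at 26.6 CPM in 0-UMI cells, 15.5 CPM in other dTAG13 cells and 25.8 CPM in DMSO cells. Gins2, of the replicative helicase, was not among the 12, with a ratio of 1.61 over other dTAG13 cells. It was at 75.6 CPM in 0-UMI cells, 46.8 CPM in other dTAG13 cells and 73.9 CPM in DMSO cells. Ratios of these 5 genes over DMSO lay between 0.871 for Ccne1 and 1.46 for Ccne2. Of 42 S phase genes, 5 were at least 1.5-fold higher than in other dTAG13 cells (1.28% over all genes) and 0 lower. Their median log2 ratio was 0.25. Against DMSO cells 0 of the 42 passed the fold, with a median of 0.03. The rest of the 12 were Meis2, Mov10, Usp46, the osteopontin gene Spp1 and the connexin gene Gjc1, with Mras, Eras and Tcf15. Spp1 was at 232 CPM in 0-UMI cells, 134 CPM in other dTAG13 cells and 287 CPM in DMSO cells.

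Phase calls from thinned cells gave the same groups a different make-up. The calls were scored from the same S phase list and from the G2 and M list, so they are not separate evidence from those genes. S phase was called in 29.3% of 0-UMI cells (25.7 to 33.2), 16.1% of other dTAG13 cells and 21.1% of DMSO cells. G1 was called in 6.52% of 0-UMI cells (4.65 to 8.84), 11.7% of other dTAG13 cells and 0.492% of DMSO cells. G2 or M was called in 64.2% of 0-UMI cells, 72.2% of other dTAG13 cells and 78.4% of DMSO cells. Without thinning, S was called in 29.2% of 0-UMI cells, 16.2% of other dTAG13 cells and 13.7% of DMSO cells. The unthinned G1 shares were 6.52% in 0-UMI cells, 12.1% in other dTAG13 cells and 0.164% in DMSO cells. With at least 8000 UMIs per cell, G1 was called in 1.79% of 0-UMI cells. Phase calls read free RNA and depth as well as the cell cycle, and the part of either was not tested. Among genes of G2 and M, 1 of 49 was at least 1.5-fold lower than in other dTAG13 cells (5.33% over all genes). The median log2 ratio of that list was -0.11, so as a list it differed little. The 1 gene was Hmmr, of the spindle, at 172 CPM in 0-UMI cells, 261 CPM in other dTAG13 cells and 149 CPM in DMSO cells.

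The 0-UMI cells held the transcripts of the core pluripotency factors. Pou5f1 was at 615 CPM in 0-UMI cells, 511 CPM in other dTAG13 cells and 613 CPM in DMSO cells, Sox2 at 338 CPM in 0-UMI cells, 331 CPM in other dTAG13 cells and 294 CPM in DMSO cells and Nanog at 97.7 CPM in 0-UMI cells, 70.8 CPM in other dTAG13 cells and 87.4 CPM in DMSO cells. Of 18 naive pluripotency genes, 3 were at least 1.5-fold higher than in other dTAG13 cells (1.28% over all genes). Against DMSO cells 1 was at least 1.5-fold lower (2.23% over all genes). The median log2 ratios were 0.39 over other dTAG13 cells and -0.10 over DMSO cells. Zfp42, the naive marker also known as Rex1, was at 592 CPM in 0-UMI cells, 388 CPM in other dTAG13 cells and 624 CPM in DMSO cells. Spic was at 11.1 CPM in 0-UMI cells, 6.23 CPM in other dTAG13 cells and 11.96 CPM in DMSO cells, and Tcl1, a cofactor of Akt, at 19.4 CPM in 0-UMI cells, 12.6 CPM in other dTAG13 cells and 46.4 CPM in DMSO cells. Zfp42 and Spic were close to their DMSO levels, with ratios of 0.949 and 0.927, and Tcl1 was not, at 0.418 (0.333 to 0.519). Of the shared and formative lists, 0 of 9 and 0 of 4 measured genes passed the fold against DMSO cells.

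Stress lists differed in how many genes passed the fold. Of 9 measured immediate-early genes, 3 were at least 1.5-fold lower than in other dTAG13 cells (5.33% over all genes). Against DMSO cells 6 of the 9 were at least 1.5-fold higher (5.29% over all genes). Jun, of the AP-1 factor, was at 37.7 CPM in 0-UMI cells, 74.3 CPM in other dTAG13 cells and 14.8 CPM in DMSO cells. In the integrated stress response list 3 of 11 were at least 1.5-fold lower than in other dTAG13 cells (5.33% over all genes) and 3 higher than in DMSO cells (5.29% over all genes). Its median log2 ratios were -0.11 and 0.19, with 4 of 11 above other dTAG13 cells and 7 of 11 above DMSO cells at any fold. Ddit3 was at 8.78 CPM in 0-UMI cells, 18.5 CPM in other dTAG13 cells and 3.73 CPM in DMSO cells and Sesn2, also a p53 target, at 19.6 CPM in 0-UMI cells, 37.4 CPM in other dTAG13 cells and 16.2 CPM in DMSO cells. Heat shock, ribosome biogenesis and Tex10 complex genes did not pass the fold in either comparison (0 of 9, 0 of 36 and 0 of 7). Tex10 (ENSMUSG00000028345) was at 78.3 CPM in 0-UMI cells (339 UMIs), 62.7 CPM in other dTAG13 cells and 81.1 CPM in DMSO cells. Its ratio over other dTAG13 cells was 1.25 (1.12 to 1.39) and over DMSO cells 0.966 (0.864 to 1.08). A degrader acts on protein, so this level says nothing of protein loss.

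Metabolic lists had medians close to those of DMSO cells. Cholesterol synthesis genes had median log2 ratios of 0.26 over other dTAG13 cells and 0.03 over DMSO cells, and glycolysis genes of 0.12 and -0.03, with Pfkp at 17.1 CPM in 0-UMI cells, 8.34 CPM in other dTAG13 cells and 21.5 CPM in DMSO cells. Pdk1, a kinase gene that holds back pyruvate oxidation, was at 12.02 CPM in 0-UMI cells, 14.99 CPM in other dTAG13 cells and 20.5 CPM in DMSO cells. It was the 1 glycolysis gene of 15 at least 1.5-fold below DMSO (2.23% over all genes). Imprinted genes had medians of -0.27 over other dTAG13 cells and 0.49 over DMSO cells. Of 10 measured, 0 passed the fold against other dTAG13 cells and 4 were at least 1.5-fold higher than in DMSO cells (5.29% over all genes). Meg3 was at 119 CPM in 0-UMI cells, 166 CPM in other dTAG13 cells and 75.7 CPM in DMSO cells. Peg10 was at 15.9 CPM in 0-UMI cells, 23.0 CPM in other dTAG13 cells and 7.69 CPM in DMSO cells. Phlda2 lay above both groups, at 79.3 CPM in 0-UMI cells, 59.1 CPM in other dTAG13 cells and 65.9 CPM in DMSO cells. Nodal, a ligand of the TGF-beta family, was at 64.2 CPM in 0-UMI cells, 86.4 CPM in other dTAG13 cells and 38.1 CPM in DMSO cells, and its antagonist gene Lefty1 at 88.7 CPM in 0-UMI cells, 110 CPM in other dTAG13 cells and 145 CPM in DMSO cells.

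Markers of other cell types were mostly low in all groups, and several defining ones were at 0 in the 0-UMI cells. These cells held 4327498 UMIs, against 79012347 in other dTAG13 cells and 96950111 in DMSO cells, so a rare gene reaches 0 more readily here. A 0 below means under a floor of 3 UMIs or 0.693 CPM, and is not shown to be particular to the 0-UMI cells. Fibroblast markers summed to 38.4 CPM in 0-UMI cells, 89.4 CPM in other dTAG13 cells and 35.9 CPM in DMSO cells, of which Tagln gave 36.0 CPM in 0-UMI cells, 86.8 CPM in other dTAG13 cells and 28.7 CPM in DMSO cells, and 5 of 9 (Col1a2, Col3a1, Postn, Lum and Dcn) were at 0 in 0-UMI cells. Blood and endothelial markers summed to 46.7 CPM in 0-UMI cells, 58.6 CPM in other dTAG13 cells and 35.7 CPM in DMSO cells, nearly all from Pecam1, with 4 of 9 at 0 (Hba-x, Hbb-bh1, Hba-a2 and Cdh5). Endoderm markers summed to 248 CPM in 0-UMI cells, 298 CPM in other dTAG13 cells and 229 CPM in DMSO cells, with 7 of 18 at 0, among them Gata4, Sox17 and Foxa1. Primitive streak markers summed to 9.94 CPM in 0-UMI cells, 8.53 CPM in other dTAG13 cells and 4.65 CPM in DMSO cells, with Mixl1, Mesp1 and Foxa2 at 0, and nascent mesoderm markers to 9.94 CPM in 0-UMI cells, 13.3 CPM in other dTAG13 cells and 14.0 CPM in DMSO cells, with 2 of 8 at 0 (Kdr and Msgn1). Trophoblast markers summed to 165 CPM in 0-UMI cells, 230.4 CPM in other dTAG13 cells and 204 CPM in DMSO cells, with Elf5 and Plac1 at 0. Of 6 measured trophoblast markers, 3 were at least 1.5-fold higher than in DMSO cells (Krt19, Tfap2c and Krt18) and 2 lower (Rhox6 and Rhox9). Over all genes the shares were 5.29% higher and 2.23% lower. Neural markers summed to 72.8 CPM in 0-UMI cells, 107 CPM in other dTAG13 cells and 71.2 CPM in DMSO cells, with Sox1 and Zic1 at 0. Within that sum the ratios over DMSO were 4.27 for Neurod1, 2.24 for Nes and 0.784 for Tubb3. Germ cell markers summed to 134 CPM in 0-UMI cells, 152 CPM in other dTAG13 cells and 121 CPM in DMSO cells with 0 of 8 at 0. The part of such cells in the differences was not tested.

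Zscan4e, of the 2-cell-like state, had 50 UMIs in 0-UMI cells and a level of 11.6 CPM, against 2.80 CPM in other dTAG13 cells and 1.25 CPM in DMSO cells. That level came from few cells. At least 3 UMIs of the Zscan4 family were found in 5 of the 0-UMI cells (0.858%, 0.279 to 1.99) and in 23 other dTAG13 cells (0.259%, 0.164 to 0.388). Zscan4 genes are near copies, so their single-gene values are uncertain.

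The 0-UMI cells were spread between the libraries by their nearest neighbours. In a joint space of 30 principal components from 2000 variable genes, without the rule genes and the other listed p53 targets, DMSO cells made up a median of 26.7% of the 30 nearest neighbours of a 0-UMI cell, with quartiles of 3.33 and 63.3%. The median was 0% for other dTAG13 cells and 100% for DMSO cells, where 57.5% of all cells were DMSO cells. At least 50% DMSO neighbours were found for 203 0-UMI cells (34.8%, 31.0 to 38.8), for 6.25% of other dTAG13 cells and for 97.9% of DMSO cells. At the other end, 20.1% of 0-UMI cells and 55.8% of other dTAG13 cells had no DMSO neighbour. Shares between 40 and 60% were held by 69 of the 0-UMI cells, so the split into 203 and 380 is a range and not a class. Genes regulated by p53 that the list lacks may remain among the variable genes.

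**Figure D4:**
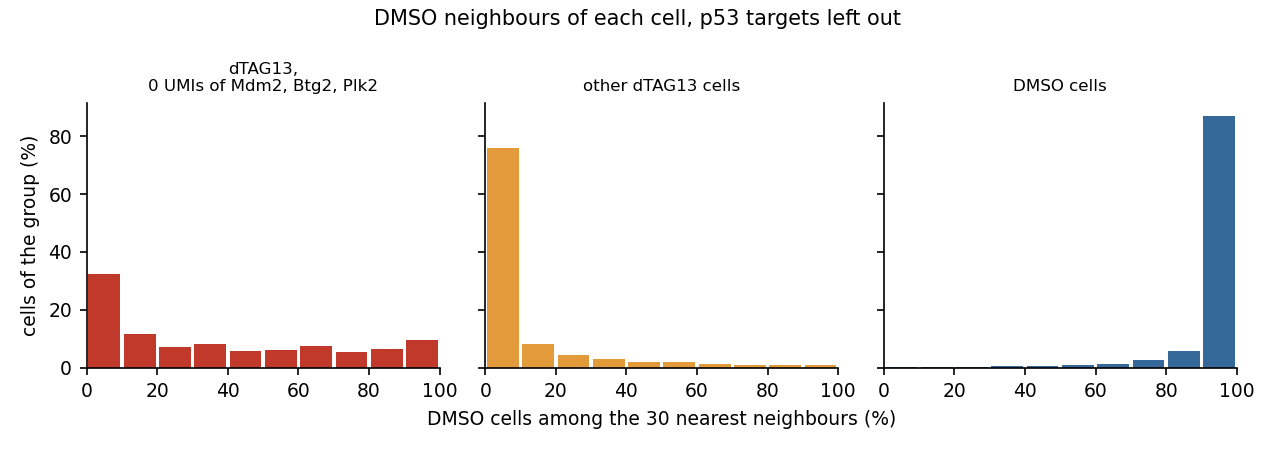
Share of DMSO cells among the 30 nearest neighbours of each cell (x axis, 10% bins) against the share of cells in the group (y axis), for 0-UMI cells, other dTAG13 cells and DMSO cells. The 0-UMI cells extend over the whole axis (median 26.7%), whereas other dTAG13 cells pile up near 0 and DMSO cells near 100%.

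Neighbours moved with rule gene UMIs and with depth. In dTAG13 cells the share with at least 50% DMSO neighbours was 34.8, 19.3, 9.97, 4.69 and 1.69% at 0, 1, 2 to 3, 4 to 6 and 7 or more UMIs of the rule genes. Among 0-UMI cells the median share of DMSO neighbours was 10% at 5000 to under 6000 UMIs, 25% at 6000 to under 8000, 46.7% at 8000 to under 12000 and 76.7% at 12000 or more. The share thus rose with depth among 0-UMI cells. Depth also went with DMSO neighbours outside them. Other dTAG13 cells with at least 50% DMSO neighbours had a median of 9020 UMIs, against 7794.5 UMIs in all other dTAG13 cells. The 23 cells of the deepest bin are few, and the part of depth was not tested.

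The 203 0-UMI cells with mostly DMSO neighbours and the remaining 380 differed in genes that separate the libraries. The split used the variable genes, which can include those named here, and left out Perp, Cdkn1a and the other listed p53 targets, so the levels are a description. Perp was at 40.3 CPM in the 203 cells, 128 CPM in the 380 cells and 27.0 CPM in DMSO cells. Serpine2 was at 16.6 CPM in the 203 cells, 70.0 CPM in the 380 cells and 11.9 CPM in DMSO cells, and Ddit4 at 11.3 CPM in the 203 cells, 38.2 CPM in the 380 cells and 5.71 CPM in DMSO cells. Nectin4 had 0 UMIs in the 203 cells, under a floor of 3 UMIs or 1.78 CPM, and was at 15.1 CPM in the 380 cells. Mras was at 46.3 CPM in the 203 cells, 15.9 CPM in the 380 cells and 54.3 CPM in DMSO cells, and Eras at 51.0 CPM in the 203 cells, 26.1 CPM in the 380 cells and 49.8 CPM in DMSO cells. For Mras and Eras the 203 cells were close to DMSO cells. Perp and Ddit4 stayed above DMSO in the 203 cells, with ratios of 1.496 (1.16 to 1.90) and 1.97 (1.18 to 3.11). The shift was not particular to 0-UMI cells. In the 555 other dTAG13 cells with mostly DMSO neighbours, Perp was at 67.5 CPM, Serpine2 at 31.8 CPM and Ddit4 at 24.7 CPM. Mras was at 28.3 CPM and Eras at 42.5 CPM in these 555 cells. All other dTAG13 cells had 187, 103, 72.9, 11.5 and 18.5 CPM of these genes in the order given.

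Several genes stayed apart from the DMSO level even in the 203 cells. Cdkn1a was at 106 CPM in the 203 cells, 149 CPM in the 380 cells and 64.2 CPM in DMSO cells. Rpl22l1, a ribosomal protein paralog gene, was at 887 CPM in the 203 cells, 534 CPM in the 380 cells and 1306 CPM in DMSO cells, Sfrp1, a secreted Wnt antagonist gene, at 27.3 CPM in the 203 cells, 12.9 CPM in the 380 cells and 46.8 CPM in DMSO cells, and Rhox6 at 20.8 CPM in the 203 cells, 12.5 CPM in the 380 cells and 65.5 CPM in DMSO cells. Other p53 target UMIs per thinned cell had medians of 7 in the 203 cells, 10 in the 380 cells and 5 in DMSO cells. The 2 sets of 0-UMI cells had similar Tex10 levels, 78.9 CPM in the 203 cells and 78.0 CPM in the 380 cells. G1 was called in 0.493% of the 203 cells (1 cell) and in 9.74% of the 380 cells. Median depth was 7469 UMIs in the 203 cells and 6516.5 UMIs in the 380 cells.

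**Figure D5:**
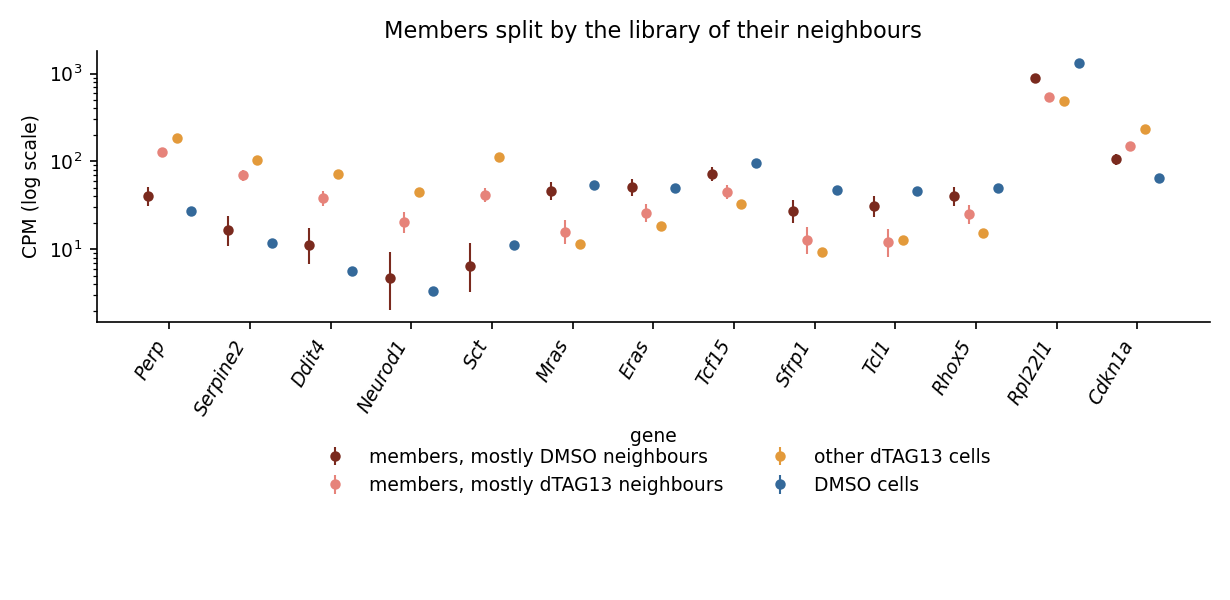
Summed CPM (log scale, y axis) of named genes (x axis) in 0-UMI cells (members) with mostly DMSO neighbours, 0-UMI cells with mostly dTAG13 neighbours, other dTAG13 cells and DMSO cells; bars are 95% Poisson intervals. Perp is at 40.3, 128, 187 and 27.0 CPM in this order, while Rpl22l1 and Cdkn1a of the cells with DMSO neighbours stay apart from DMSO cells, at 887 against 1306 CPM and 106 against 64.2 CPM.

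Clusters of the dTAG13 cells, made without the rule genes, all held 0-UMI cells, at different shares. The highest share, 12.7% (10.1 to 15.7; 75 of 590 cells), was in a cluster led by Manba, Mras, Aard, Vim and Ttn. The lowest, 1.48% (0.766 to 2.57, 12 of 812 cells), was in one led by Shisal2b, Xist, Atf3, Sct and Cd109. Its median of 18 other p53 target UMIs was the highest of the clusters. Xist was at 36.1 CPM in that cluster and 9.68 CPM in the other dTAG13 cells clustered. The mitotic cluster led by Ube2c, Depdc1a and Plk1 held 7.60% (167 of 2196 cells). The keratin cluster led by Krt18 and Krt8 held 5.90% (108 of 1829 cells), the histone cluster led by H2ac18 held 5.63% (158 of 2805 cells) and the Sox11 and Kif1a cluster held 4.88% (58 of 1189 cells). In the smallest, led by Eif1ad copies and Zscan4e, 5 of 42 cells were 0-UMI cells (11.9%, 3.98 to 25.6). After thinning, these shares became 17.8, 3.57, 14.9, 9.13, 11.4, 10.8 and 16.7% in the order given.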

How the data were processed

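Embryoid bodies of J1 mouse embryonic stem cells were profiled after 2 days of dTAG13 or DMSO, with 1 library each of 11644 and 17958 barcodes. The authors deposited UMI counts per gene and barcode as whole numbers, and per the file headers these come from Cell Ranger 8.0.1. Seurat 5.0.1, R 4.3.2 and the build mm10 are named, per the submitters' processing notes, with no role. The barcode filter applied upstream is not given in the sources here. Of 33696 gene identifiers, 1735 (5.15%) are absent from GENCODE M21, so the annotation is not settled. Symbols come from the files, and 26 symbols with 2 identifiers were summed.

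The members and the gene lists were chosen with earlier results of these data known. UMIs were summed over the cells of a group and scaled to CPM. Intervals are exact Poisson (levels), exact conditional binomial (ratios) and Clopper-Pearson (shares). A minimum of 10 CPM in either compared group applied, a gene counted as different at 1.5-fold, and the 3 rule genes were left out. Named genes were the 12 highest and 12 lowest ratios over other dTAG13 cells and the 8 highest and 8 lowest over DMSO cells, at 20 CPM and a UMI in 5% of cells, with up to 4 per list, all measured p53 targets and a fixed set. Not every one is described. Thinning drew 5000 UMIs per cell and left out no filtered cell. Phases, components and Leiden clusters (resolution 0.6, 15 neighbours) used scanpy 1.11.5, scikit-learn 1.9.0 and leidenalg 0.10.2. Scrublet called 3 dTAG13 and 2 DMSO cells and was taken not to have worked, so nothing was removed as a doublet. Sums, intervals and neighbour shares were tested on simulated data. The alternatives are given at the end.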

Additional observations from a re-analysis of the deposited data

How the results depend on the processing

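There were 20 alternatives, and each value was recomputed only under those that bear on it. For log2 ratios these ranged from 8 (Ccng1 over other dTAG13 cells) to 13 (the p53 list over DMSO cells). Of the 20, 1 was chosen after seeing the data, a rule of 0 UMIs of 6 genes (Mdm2, Btg2, Plk2, Cdkn1a, Perp and Ccng1). Of 1928 values, 1616 stayed the same, 300 moved and 12 with a main ratio of at least 1.5-fold in either direction changed sign. Smaller ratios that changed sign were counted as moved or the same. The cause was not tested, but the rule of 6 genes (70 cells), a fold of 2, and a minimum of 20 CPM or of 0 change by construction which cells or genes are counted. The 0-UMI share of dTAG13 cells was 3.90% with at least 8000 UMIs, 11.5% with thinning before the rule, 14.5% with up to 1 UMI allowed and 0.740% with 6 genes. Genes at least 1.5-fold higher than in other dTAG13 cells (88) were 266 at 8000 UMIs, 44 with up to 1 UMI, 9 at 2-fold, 37 at 20 CPM, 2407 with no minimum, 153 in cells called G2 or M and 749 with 6 genes; genes lower (367) were 586 at 8000 UMIs, 241 with up to 1 UMI, 91 at 2-fold, 191 at 20 CPM, 7840 with no minimum and 1070 with 6 genes. Genes higher than in DMSO cells (356) were 87 at 2-fold, 201 at 20 CPM, 3480 with no minimum and 835 with 6 genes; genes lower (150) were 234 at 8000 UMIs, 26 at 2-fold, 74 at 20 CPM, 7248 with no minimum and 557 with 6 genes. The p53 list's median log2 ratio over DMSO cells (0.70) was 0.92 against DMSO cells with 0 UMIs of the rule genes and 0.28 with 6 genes. Other p53 target UMIs (median 9) were 7.5 at 8000 UMIs and 12 without thinning. The median share of DMSO neighbours (26.7%) was 46.7% at 8000 UMIs and 53.3% with 6 genes, and the G1 share (6.52%) was 1.79% at 8000 UMIs.

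Among ratios of at least 1.5-fold, signs turned for the nascent mesoderm median over DMSO (0.97 with no minimum, 0.20 with 6 genes). Over other dTAG13 cells they turned for neural ectoderm (0.33) and fibroblast (0.021) medians with no minimum. With 6 genes, log2 ratios over DMSO became -0.28 for Sct, -0.14 for Klhl26, -0.41 for Lpin1, -0.86 for Neurod1, -0.043 for Ddit4 and -1.83 for Krt18, and that of Rhox5 over other dTAG13 cells became -1.56; at 8000 UMIs, that of Lpin1 over DMSO became -0.24. Smaller log2 ratios over DMSO also turned under some alternatives. Among them, the lowest values were -1.24 for Cdkn2b (main 0.51), -0.78 for Cldn6 (0.54), -1.10 for Krt8 (0.39) and -1.39 for the trophoblast median (0.55). Depth limits what a count of 0 shows in a shallow cell. No paired analysis was possible because each treatment has 1 library; for the same reason no replicate could be left out.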
